A study of Mus musculus with 79 samples.

Results

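The matrix proteoglycans examined here were the core protein genes Dcn (decorin), Bgn (biglycan), Aspn (asporin), Fmod (fibromodulin), Lum (lumican), Prelp (prolargin), Ogn (osteoglycin, also called mimecan), Podn (podocan), Vcan (versican) and Hspg2 (perlecan). They were taken by name, and each matched exactly 1 row of the array table through its RefSeq transcript identifier, so the set was 10 of the 31350 rows. The rows were measured in lung RNA of 79 mice, 1 array per mouse. The study compared smoke-exposed with sham-exposed mice, βENaC with wild-type (WT) mice and males with females, after a single exposure or after repeated daily exposure. WT and βENaC mice were littermates on the C57BL/6J background, aged 5 to 7 weeks at exposure, and βENaC mice carried the Scnn1b transgene, which is expressed in airway epithelial cells. Smoke-exposed mice received the smoke of 6 research cigarettes (3R4F, filters removed) a day for 1 day or for 5 consecutive days. Sham-exposed mice breathed room air in the same kind of chamber for the same time. Tissue was taken 4 hours after the last exposure, and RNA came from the homogenized right lung with no separation of cell types. The 1-day mice comprised 20 sham-exposed and 20 smoke-exposed animals and the 5-day mice 20 sham-exposed and 19 smoke-exposed animals. Divided further by genotype and sex, they formed 16 groups of 4 to 6 mice.

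Proteoglycans are matrix or cell surface proteins that carry glycosaminoglycan chains, long sulfated sugars that hold water and bind growth factors. Whether each protein of the set carries such chains was not examined. Small leucine-rich proteoglycans such as decorin, biglycan, lumican and fibromodulin sit on collagen fibrils and regulate how the fibrils assemble, and in the lung they are made mainly by fibroblasts and other mesenchymal cells. Versican is a large chondroitin sulfate proteoglycan that binds hyaluronan in provisional matrix, and perlecan is the large heparan sulfate proteoglycan of basement membranes. The chains are built in the Golgi on a short linker sugar that starts with xylose. Outside the cell, sulfatases and heparanase trim the chains, and metalloproteinases cut the core proteins.

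Values are RMA log2 intensities, so a difference of 1 is a doubling of signal, and differences between groups are β coefficients of a linear model fitted separately at each duration with terms for exposure, genotype and sex. A gene passed the test when its adjusted p from limma (Benjamini-Hochberg over all 31350 rows) was below 0.05. Coefficients are smoke minus sham, βENaC minus WT and male minus female, and the genotype sign is the opposite of the one the study used. Intensity depends on the probes of each gene, so levels were not compared between genes. Scnn1b followed the genotype labels, with values of 11.52 to 11.88 in the βENaC mice and 8.42 to 9.47 in the WT mice over both durations, although a comment in the authors' analysis code says that 1 mouse was relabelled from this gene. Cyp1a1, which tobacco smoke induces through the aryl hydrocarbon receptor, was at 9.96 to 11.59 in smoke-exposed and 5.43 to 8.98 in sham-exposed mice. For 13 WT smoke-exposed animals the source name gives the other genotype, and the titles and characteristics were followed. Lung markers were high in all mice (Sftpc 12.51 to 12.78, Scgb1a1 13.07 to 13.35), and of 8 cartilage markers 7 stayed at or below 4.05 while Cytl1 was at 7.41 to 8.96. Markers of tissues next to the lung varied widely between mice, with the skeletal muscle gene Acta1 at 2.69 to 10.85, the atrial gene Nppa at 6.46 to 12.35 and the thymus gene Rag1 at 2.62 to 7.85. The mean of 4 skeletal muscle markers was 8.66 or higher in 2 mice, the WT sham-exposed male replicate 4 at 1 day and the WT smoke-exposed female replicate 4 at 5 days, and at most 4.47 in the other mice. The arrays with the lowest mean correlation to the others were the βENaC sham-exposed male replicate 1 at 1 day and, at 5 days, the WT smoke-exposed female replicate 2, the βENaC smoke-exposed female replicate 3 and the βENaC sham-exposed male replicate 3.

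Upstream sequences are shown for Hspg2, Bgn and Aspn, because these genes gave the most significant coefficients for smoke, sex and genotype. RefSeq windows of 250 bases before the start site (build GRCm38.p6) were matched for 8 of the 10 genes. The windows were 70.0% G or C with 20 CpG dinucleotides for Hspg2, 64.4% with 7 for Bgn and 30% with 2 for Aspn, beside medians of 52.4% and 6 over all 32851 windows. The sequences are printed 5′ to 3′ in the direction of transcription, with the motifs found by a search of both strands in capitals. For Hspg2 the last bases of the window are left out because they overlap another transcript of the gene.
Hspg2 (chr4:137468553-137468750, plus strand): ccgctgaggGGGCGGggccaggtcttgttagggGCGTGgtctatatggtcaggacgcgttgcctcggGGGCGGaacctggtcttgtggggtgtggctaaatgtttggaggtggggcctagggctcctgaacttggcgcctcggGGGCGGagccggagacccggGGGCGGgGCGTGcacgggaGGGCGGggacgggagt
Bgn (chrX:73483351-73483600, plus strand): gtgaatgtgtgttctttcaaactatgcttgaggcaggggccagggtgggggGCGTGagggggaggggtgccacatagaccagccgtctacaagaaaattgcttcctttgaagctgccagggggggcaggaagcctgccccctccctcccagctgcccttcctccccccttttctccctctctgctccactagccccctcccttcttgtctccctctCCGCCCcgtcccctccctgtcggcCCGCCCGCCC
Aspn (chr13:49544193-49544442, plus strand): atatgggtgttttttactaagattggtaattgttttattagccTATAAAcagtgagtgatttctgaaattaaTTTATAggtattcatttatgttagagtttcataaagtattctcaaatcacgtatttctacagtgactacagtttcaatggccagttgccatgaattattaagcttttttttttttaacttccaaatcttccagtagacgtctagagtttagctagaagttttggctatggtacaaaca
The Hspg2 window held 5 GC boxes (GGGCGG or its complement) and 2 copies of GCGTG, the core of the dioxin response element. The Bgn window held 3 GC boxes, of which the last pair overlap, and 1 copy of GCGTG. The Aspn window held neither and had 2 copies of TATAAA (or its complement). Among all windows, 32.7% held GGGCGG, 28.2% held GCGTG and 12.4% held TATAAA, while the antioxidant response core TGACNNNGC (10.2% of windows) and the E-box CACGTG (6.02%) were in none of the 3. A match describes the letters of the window and was not tested as a binding site.

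Smoke exposure left most of these genes within their spread, and the change that passed the test was a fall of Hspg2 after repeated exposure. After 1 day none of the 10 genes passed, where 9.45% of all rows did by the same limma test, and 3 of the 10 had an unadjusted p below 0.05, where 21.5% of all rows did. After 5 days 1 of the 10 passed, where 6.53% of all rows did. The median coefficient of the 10 genes was 0.0002 at 1 day and -0.09 at 5 days, beside medians of 0.01 and -0.002 over all rows. In bulk lung tissue, fewer cells of a type and less RNA per cell cannot be told apart. The comparisons by exposure, genotype and sex at a given duration use the same mice.

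Hspg2 encodes perlecan, the heparan sulfate proteoglycan of vascular and epithelial basement membranes. After 5 days, Hspg2 was 8.11 to 8.66 with a median of 8.46 in the 19 smoke-exposed mice. In the 20 sham-exposed mice it was 8.24 to 8.88 with a median of 8.63. The ranges overlapped, but 18 of the 19 smoke-exposed mice lay below the sham median, and the mean was lower with smoke in each of the 4 combinations of genotype and sex. Hspg2 fell by 0.19 on the log2 scale (SE 0.039, adjusted p = 0.0013), a 1.14-fold change, with a 95% confidence interval of -0.27 to -0.11. Within the WT mice the coefficient was -0.20 (adjusted p = 0.034), and within the βENaC mice it was -0.17 (adjusted p = 0.13). It was the 1 of 10 genes to pass within WT, where 2.16% of all rows did. Within βENaC 0 of 10 passed, where 1.81% of all rows did, and 2 had an unadjusted p below 0.05, against 12.6% of all rows. The WT value did not pass without the WT smoke-exposed female replicate 2, at -0.17 (adjusted p = 0.1), and the pooled value without that mouse was -0.17 (adjusted p = 0.0022). The WT call was lost without any 1 of 10 mice in all. The fibroblast markers moved at the same time, with 4 of 7 lower after 5 days of smoke (Col1a1 -0.39, Col3a1 -0.58, Tcf21 -0.38 and Dpt -0.19). The mean log2 intensity of the 7 markers was 8.54 to 9.51, median 9.32, in smoke-exposed and 8.93 to 9.86, median 9.50, in sham-exposed mice, and its part in the Hspg2 value was not tested. Of 4 endothelial markers 1 (Pecam1, -0.11) was lower and none higher, with coefficients of -0.11 to -0.03. Of 4 heart muscle markers 1 (Tnnt2, 0.40) was higher, with coefficients of 0.33 to 0.76, and of 4 white fat markers 1 (Lep, 0.52) was higher. Lep was low on the arrays, at 2.63 to 5.36 with a median of 3.15 over all mice. The 4 skeletal muscle markers had coefficients of 0.30 to 0.71, and none passed.

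After a single exposure Hspg2 stood on the other side of 0. The 20 smoke-exposed mice had values of 8.40 to 8.96 with a median of 8.63, the 20 sham-exposed mice 8.07 to 8.87 with a median of 8.56, and the coefficient was 0.09 (adjusted p = 0.19). The difference between the 5-day and the 1-day coefficient, fitted as an exposure by duration term over all 79 mice, was -0.29 on the log2 scale (SE 0.074, adjusted p = 0.042), and Hspg2 was the 1 gene of the 10 to pass it, where 0.612% of all rows passed. This call was close to the threshold. It was lost when any of 28 of the 79 mice was left out, with coefficients of -0.29 to -0.26 in those 28 cases. Without the WT smoke-exposed female replicate 2 it was -0.27 (adjusted p = 0.057). Across 8 alternative settings with all mice the term was -0.29 to -0.27, with an adjusted p of 0.0026 to 0.061. It did not pass with the replicate number as a block. It passed with genotype and sex also allowed to differ by duration.

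**Figure D1:**
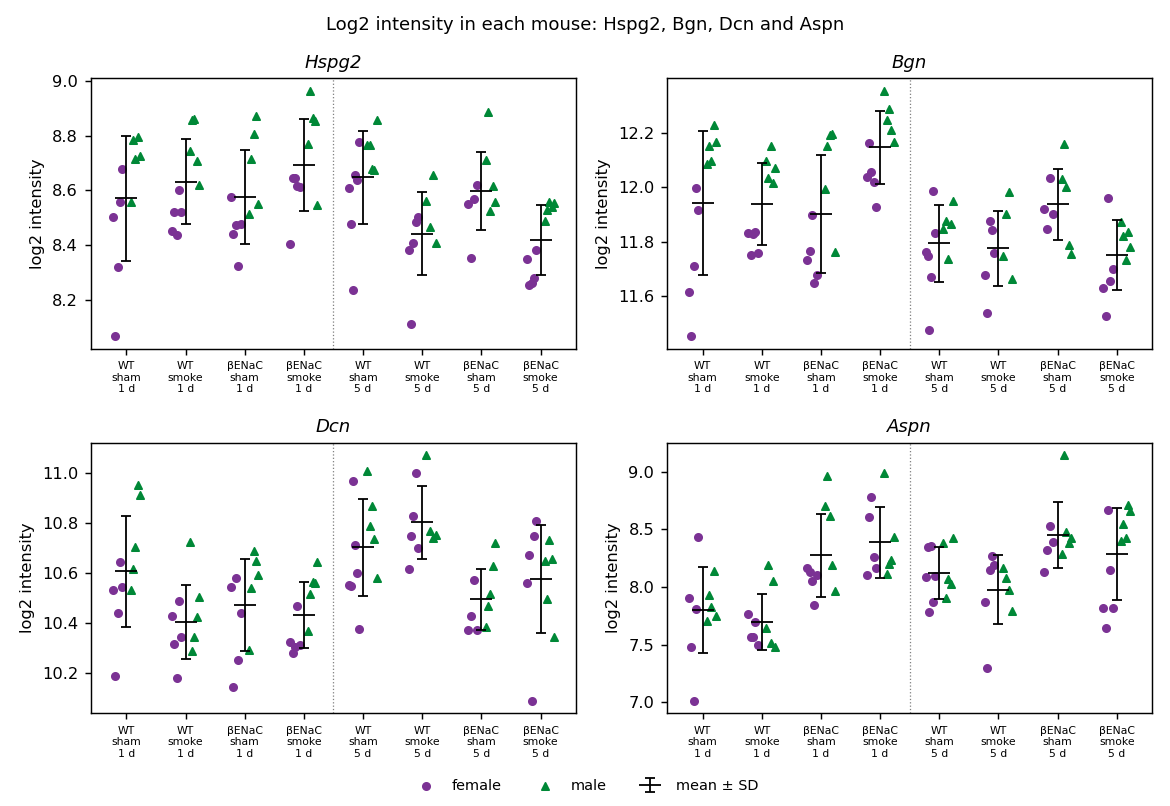
Log2 intensity of Hspg2, Bgn, Dcn and Aspn in every mouse, by genotype, exposure and duration (d, days), with circles for females, triangles for males and bars for mean ± SD. Hspg2 is lower in the 5-day smoke-exposed columns, Aspn is higher in the βENaC columns, and the male points of Hspg2 and Bgn lie high within most columns.

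Among the small leucine-rich proteoglycans 1 smoke difference passed, for Bgn within 1 genotype. Bgn, which binds collagen and can signal through Toll-like receptors when released, was 11.75 to 12.35 with a median of 12.05 in smoke-exposed and 11.45 to 12.23 with a median of 11.96 in sham-exposed mice at 1 day, with a coefficient of 0.12 (adjusted p = 0.071). It passed with each array centred on its median, at 0.12 (adjusted p = 0.034), and without any 1 of 3 sham-exposed WT mice (female replicates 4 and 5 and male replicate 4), at 0.13 to 0.14. Within the βENaC mice at 1 day Bgn was higher with smoke, at 12.15 ± 0.13 (SD, n = 10) against 11.90 ± 0.22 (SD, n = 10), a coefficient of 0.24 (adjusted p = 0.0074), and it was the 1 of 10 genes to pass there, where 3.43% of all rows did. Within the WT mice at 1 day the Bgn coefficient was -0.004 (adjusted p = 0.98), and none of the 10 passed, where 3.66% of all rows did. There 2 of the 10 had an unadjusted p below 0.05, against 15.7% of all rows. The test of the difference between genotypes, the exposure by genotype term, gave 0.25 (adjusted p = 0.63) for Bgn, so the Bgn response was not shown to differ between them. None of the 10 genes passed the exposure by genotype or the exposure by sex term at either duration, where 2 rows of the whole table (0.00638%) passed each of them at 1 day and 0 at 5 days by limma. At an unadjusted p below 0.05 each term held 1 of the 10 genes at 1 day, where 6.98% of all rows passed for genotype and 6.33% for sex. At 5 days each held 0, where 3.82% and 3.46% of all rows did. The 5-day smoke coefficient of Bgn was below 0, at -0.10 (adjusted p = 0.2) over both genotypes. Within the βENaC mice at 5 days it was -0.18 (adjusted p = 0.13), and neither value passed. Without the βENaC smoke-exposed female replicate 3 the latter passed, at -0.21 (adjusted p = 0.034).

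Dcn, which binds collagen fibrils and transforming growth factor beta, had coefficients of opposite sign at the 2 durations. At 1 day Dcn was 10.18 to 10.72 with a median of 10.39 with smoke and 10.14 to 10.95 with a median of 10.54 with sham, and 16 of 20 smoke-exposed mice lay below the sham median. The coefficient was -0.12 (adjusted p = 0.11) at 1 day and 0.09 (adjusted p = 0.38) at 5 days, and the difference between them was 0.20 (adjusted p = 0.35), none of which passed. Without the βENaC sham-exposed male replicate 1 the 1-day value passed, at -0.14 (adjusted p = 0.047). Vcan, which is made in provisional matrix and also by myeloid cells, had the widest interval at 1 day. Its coefficient was -0.29 (adjusted p = 0.35) with an interval of -0.63 to 0.06, and the sham-exposed mice ran from 5.31 to 7.71. At 5 days the Vcan coefficient was -0.19 (adjusted p = 0.15). Aspn, Fmod, Lum, Prelp, Ogn and Podn did not pass at either duration, with 1-day coefficients from -0.12 to 0.13 and 5-day coefficients from -0.16 to -0.02. Ogn was the most tightly bounded, with intervals of -0.07 to 0.06 at 1 day and -0.11 to 0.07 at 5 days. In all 60 comparisons of a gene between the arms of exposure, genotype or sex at a duration, the ranges of single mice overlapped. The same count was not made over all rows, so it does not set these genes apart.

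**Figure D2:**
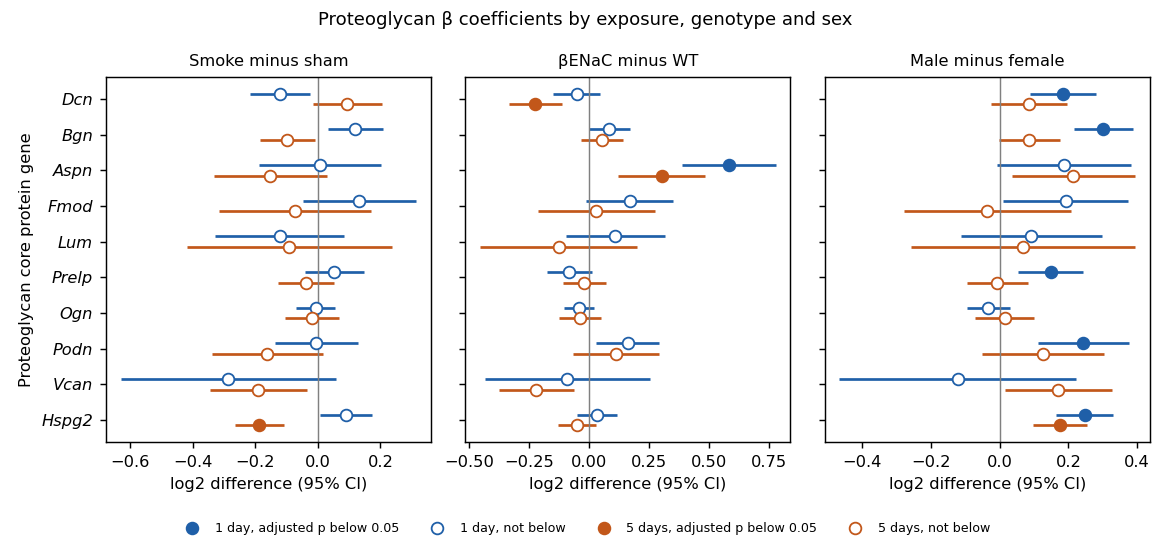
β coefficients (log2 difference) of the 10 genes with 95% confidence intervals for smoke minus sham, βENaC minus WT and male minus female, at 1 day (blue) and 5 days (orange), with filled points for an adjusted p below 0.05. The filled points are Hspg2 for exposure, Aspn at both durations and Dcn at 5 days for genotype, and 5 genes at 1 day and Hspg2 at 5 days for sex.

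Of the 10 genes, Aspn had the largest genotype coefficient at both durations. Asporin belongs to the small leucine-rich group with a run of aspartate residues near its amino end, and it binds collagen and transforming growth factor beta. At 1 day Aspn was 7.84 to 8.99 with a median of 8.20 in the 20 βENaC mice and 7.01 to 8.43 with a median of 7.73 in the 20 WT mice. All 20 βENaC mice lay above the WT median, and the 4 combinations of exposure and sex gave differences of 0.33 to 0.77. Aspn rose by 0.58 on the log2 scale (SE 0.096, adjusted p = 7.9e-05), a 1.5-fold change, and it was the 1 of the 10 genes to pass, where 5.87% of all rows did. It was also the single value in the 6 main comparisons to pass the study's additional threshold of a 1.3-fold change, where 1.54% of all rows passed both at 1 day. At 5 days the βENaC values were 7.64 to 9.14 with a median of 8.40 and the WT values 7.30 to 8.43 with a median of 8.08, with 16 of 19 βENaC mice above the WT median. The 5-day coefficient was 0.30 on the log2 scale (SE 0.089, adjusted p = 0.022), and the difference between durations was -0.28 (adjusted p = 0.82). Leaving out each mouse in turn gave 0.55 to 0.63 at 1 day and 0.27 to 0.33 at 5 days, all of which passed. Among sham-exposed mice alone the Aspn coefficient was 0.47 (adjusted p = 0.07) at 1 day and 0.31 (adjusted p = 0.17) at 5 days, and none of the 10 genes passed in these smaller fits, where 1.4% and 5.51% of all rows did. At an unadjusted p below 0.05 these fits held 3 of the 10 genes at 1 day and 4 at 5 days, where 12.5% and 17.6% of all rows passed.

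Dcn differed by genotype at 5 days. It was 10.09 to 10.81 with a median of 10.56 in the 19 βENaC mice and 10.38 to 11.07 with a median of 10.75 in the 20 WT mice, so that 17 of 19 βENaC mice lay below the WT median. Dcn was lower in βENaC mice by a coefficient of -0.23 on the log2 scale (SE 0.054, adjusted p = 0.0046), a 1.17-fold change seen in all 4 combinations of exposure and sex. Aspn and Dcn were the 2 of 10 genes that passed at 5 days, where 10.2% of all rows did. At 1 day the Dcn coefficient was -0.05 (adjusted p = 0.65), and the difference between durations was -0.17 (adjusted p = 0.82). No row of the table passed the genotype by duration term, and 2 of the 10 genes (Aspn and Dcn) had an unadjusted p below 0.05 for it, where 6.07% of all rows did. The 5-day Vcan coefficient of -0.22 (adjusted p = 0.06) lay near the threshold and passed under 3 of the alternatives, array weights, a repeated quantile normalization and omission of dim rows. The remaining 7 genes had genotype coefficients from -0.08 to 0.17 after 1 day and from -0.13 to 0.11 after 5 days. Of the 7 fibroblast markers, 3 were higher in βENaC mice at 1 day (Col1a1 0.28, Col1a2 0.22, Col3a1 0.31) and 2 were lower at 5 days (Tcf21 -0.17, Dpt -0.17). Their mean at 1 day was 8.93 to 9.69, median 9.40, in βENaC and 8.90 to 9.60, median 9.27, in WT mice, and at 5 days 8.86 to 9.86, median 9.40, in βENaC and 8.54 to 9.72, median 9.41, in WT mice. At 5 days 2 of 4 endothelial markers were also lower in βENaC mice (Cdh5 -0.12, Kdr -0.27), as was 1 of 4 white fat markers (Cidec -0.44), with white fat coefficients of -0.44 to -0.09. The 4 heart muscle markers had coefficients of -0.32 to -0.23, and none passed. The WT smoke-exposed male replicate 2, which had the highest Dcn value, also had the highest white fat mean of all mice (7.14), and without it the Dcn coefficient was -0.21 (adjusted p = 0.0092). The part of these markers in the Aspn and Dcn values was not tested.

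5 genes of the set differed by sex after the 1-day exposures, always with higher values in males. Bgn, Hspg2, Podn, Dcn and Prelp passed, 5 of 10, where 7.82% of all rows passed with higher values in males and 9.89% in either direction. The median coefficient of the 10 genes was 0.18, against 0.01 over all rows. Bgn was 11.76 to 12.35 with a median of 12.15 in the 20 males and 11.45 to 12.16 with a median of 11.83 in the 20 females, and 19 of 20 males lay above the female median. The Bgn coefficient was 0.30 on the log2 scale (SE 0.043, adjusted p = 7.6e-06), a 1.23-fold difference. Hspg2 was 8.51 to 8.96 with a median of 8.76 in males and 8.07 to 8.68 with a median of 8.51 in females, and all 20 males lay above the female median. The Hspg2 coefficient was 0.25 on the log2 scale (SE 0.042, adjusted p = 8.1e-05). Podn, a small leucine-rich protein of vascular matrix, had a coefficient of 0.24 (adjusted p = 0.011), Dcn 0.18 (adjusted p = 0.0088) and Prelp, which anchors basement membranes to the matrix below, 0.15 (adjusted p = 0.034). The Prelp call was weak, since it was lost with centring of each array on its median, at 0.13 (adjusted p = 0.063), with a repeated quantile normalization, at 0.10 (adjusted p = 0.16) and without any 1 of 10 mice. Aspn, Fmod, Lum, Ogn and Vcan did not pass, with coefficients from -0.12 to 0.19.

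At 5 days Hspg2 alone of the 10 genes passed the sex comparison, where 0.616% of all rows did. Hspg2 was 8.41 to 8.88 with a median of 8.56 in the 19 males and 8.11 to 8.78 with a median of 8.44 in the 20 females, 18 of the 19 males lay above the female median, and the coefficient was 0.17 on the log2 scale (SE 0.039, adjusted p = 0.017). The Bgn coefficient was 0.09 (adjusted p = 0.45) at 5 days and differed from the 1-day value by -0.22 (adjusted p = 0.073), which did not pass. That difference passed without any 1 of 7 mice, with values of -0.23 to -0.20 over all omissions. None of the 10 genes passed the sex by duration term, where 0.654% of all rows did, and 2 had an unadjusted p below 0.05, against 11.1% of all rows. The fibroblast markers also differed by sex at 1 day, with 4 of 7 higher in males (Col1a1 0.50, Col3a1 0.51, Col1a2 0.32, Dpt 0.31) and a mean of 9.17 to 9.69, median 9.48, in males and 8.90 to 9.52, median 9.24, in females, and their part in the sex differences was not tested. The fat marker Cidec was higher in males at 1 day by 0.67 (adjusted p = 0.00022) as well. Cidec was 1 of 4 white fat markers. The mean of these 4 at 1 day was 5.09 to 6.81, median 5.55, in males and 4.77 to 5.99, median 5.36, in females.

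Comparing the durations directly separated the genes further, with 5-day and 1-day animals being different mice whose arrays were run on the same plate. Among smoke-exposed mice Dcn was higher after 5 days than after 1 day, at 10.68 ± 0.22 (SD, n = 19) against 10.42 ± 0.14 (SD, n = 20), a coefficient of 0.27 on the log2 scale (SE 0.054, adjusted p = 0.00022). In the same mice Bgn was lower, at 11.76 ± 0.13 against 12.04 ± 0.18, a coefficient of -0.28 on the log2 scale (SE 0.046, adjusted p = 1.6e-05). Hspg2 at -0.23 (adjusted p = 5e-05), Podn at -0.28 (adjusted p = 0.013) and Prelp at -0.15 (adjusted p = 0.03) were lower too. These 5 of 10 genes passed, where 8.47% of all rows did. The Prelp call was lost without any 1 of 5 mice, namely the βENaC smoke-exposed male replicates 3 and 4 at 1 day and, at 5 days, the WT smoke-exposed female replicate 2, the βENaC smoke-exposed female replicate 3 and the βENaC smoke-exposed male replicate 5. Its values over all omissions were -0.17 to -0.13, and the other 4 passed with every omission. Among sham-exposed mice none of the 10 genes passed, where 0.297% of all rows did, and Aspn, at 0.26 (adjusted p = 0.22), was the 1 with an unadjusted p below 0.05, where 11.9% of all rows had one. For Dcn, Bgn and Podn the test of a difference between smoke and sham in this respect is the exposure by duration term, which gave 0.20 (adjusted p = 0.35), -0.22 (adjusted p = 0.22) and -0.15 (adjusted p = 0.71). With genotype and sex also allowed to differ by duration, the Bgn term passed, at -0.22 (adjusted p = 0.046). All 4 heart muscle markers were higher at 5 days in smoke-exposed mice, with means of 8.39 to 10.92, median 9.18, at 5 days and 8.16 to 9.49, median 8.75, at 1 day, and their part in these values was not tested.

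**Figure D3:**
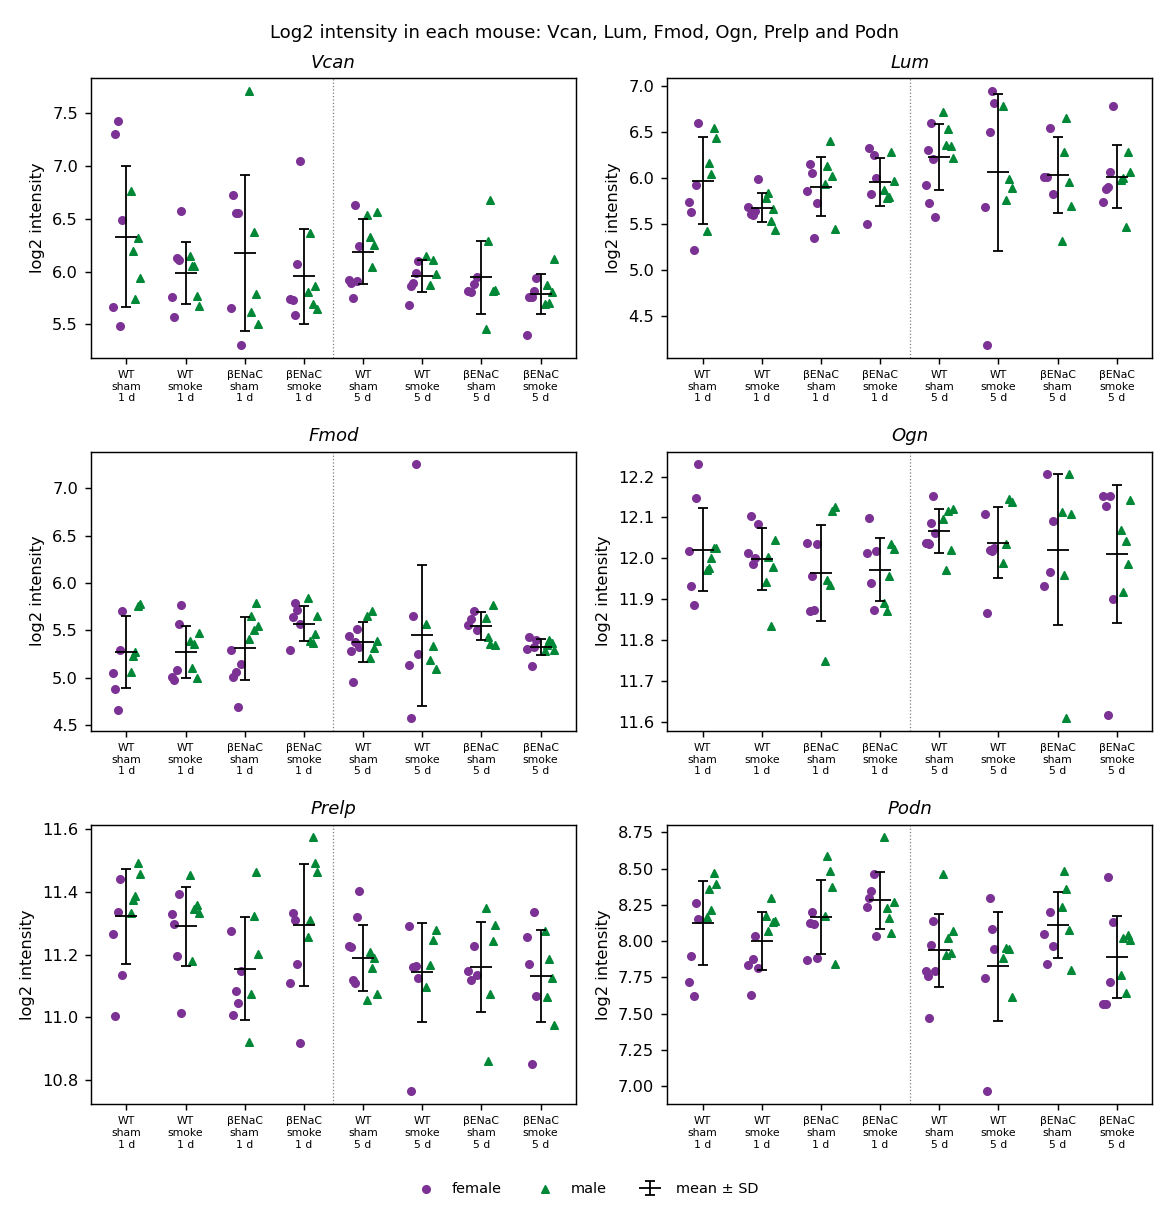
Log2 intensity of Vcan, Lum, Fmod, Ogn, Prelp and Podn in every mouse, by genotype, exposure and duration (d, days), with circles for females, triangles for males and bars for mean ± SD. Vcan spreads widely among the 1-day sham-exposed mice, and single WT smoke-exposed females at 5 days stand far below (Lum 4.18) or above (Fmod 7.25) the rest.

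The genes differed in how much mice of the same group varied. The within-group SD was 0.12 for Ogn, 0.14 for Prelp, 0.13 for Hspg2, 0.13 for Bgn and 0.17 for Dcn, and it was 0.25 for Podn, 0.3 for Aspn, 0.34 for Fmod, 0.45 for Lum and 0.46 for Vcan. Lum, a keratan sulfate proteoglycan that spaces collagen fibrils, was at 5.68, 4.18, 6.50, 6.95 and 6.82 in the WT smoke-exposed females after 5 days. Fmod, its closest relative, was at 5.13, 4.58, 5.65, 7.25 and 5.25 in the same mice. Replicate 2 was thus the lowest of its group for both, and replicate 4, with its high skeletal muscle markers, the highest for both. Without replicate 4 the 5-day smoke coefficient of Fmod was -0.19 (adjusted p = 0.082), against -0.07 (adjusted p = 0.83) with it. Aspn was also lowest in replicate 2, at 7.30 against 7.87 to 8.27 in the other 4 females. Outside that group Lum ran from 5.22 to 6.78 and Fmod from 4.66 to 5.85. Vcan reached 7.42 and 7.30 in WT and 7.71 in βENaC sham-exposed mice at 1 day, while the lowest mice of these 2 groups were at 5.49 and 5.31.

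Once group means were removed, many of these genes varied together from mouse to mouse. Of the 45 pairs, 23 passed a two-sided permutation test of Pearson's r over 79 mice (100000 permutations within groups, Benjamini-Hochberg over the 45 pairs), 20 with a positive and 3 with a negative r, and 21 of them also passed for Spearman's rho. Bgn and Podn gave r = 0.74 and rho = 0.73 (adjusted permutation p = 0.00022 for each), with an unadjusted p of 1e-05, the smallest the permutations can give. Their r was 0.72 in the 1-day and 0.76 in the 5-day mice and 0.75 without the 2 mice farthest from the Bgn median. Bgn and Hspg2 gave r = 0.62 and rho = 0.52 (adjusted permutation p = 0.00022 and 0.00045), and r = 0.57 without the farthest 2. Aspn and Podn gave r = 0.62 and rho = 0.51 (adjusted permutation p = 0.0003 and 0.00045), and r = 0.61 without the farthest 2. Bgn, Podn, Hspg2, Aspn, Lum and Fmod passed in every pairing among themselves by r, with r from 0.31 to 0.74. For Lum and Fmod r was 0.58 over all mice and 0.41 without the 2 mice farthest from the Lum median. The same count was not made for pairs of other genes, so it does not set these genes apart. All arrays share 1 normalization. With each array centred on its median 20 pairs passed, and 10 passed in the 5-day mice alone.

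**Figure D4:**
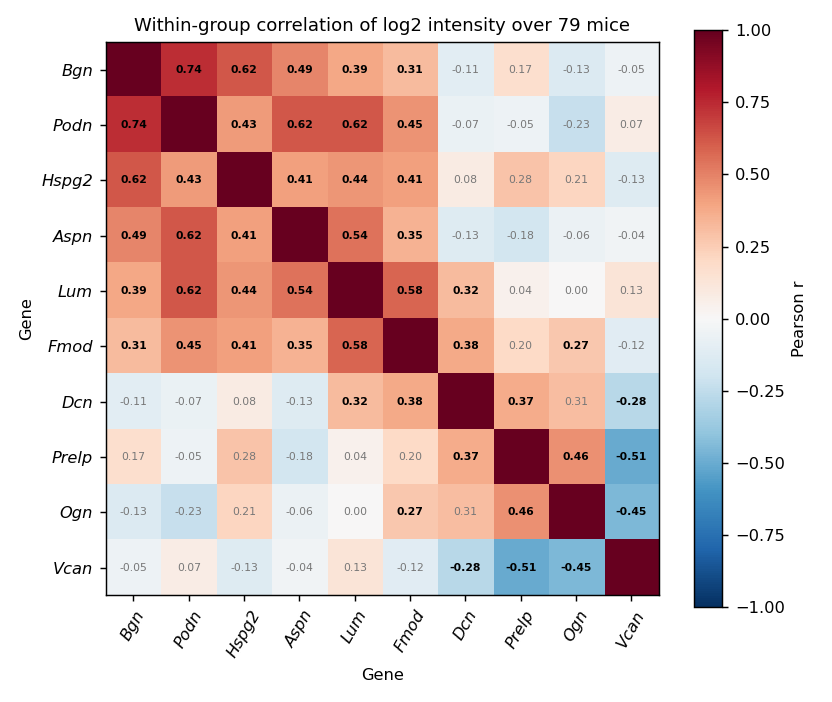
Pearson's r of log2 intensity between pairs of the 10 genes over 79 mice after subtraction of each group's mean, with bold numbers for an adjusted permutation p below 0.05. Bgn, Podn, Hspg2, Aspn, Lum and Fmod form a block of positive r, and Vcan is negative with Prelp (-0.51), Ogn (-0.45) and Dcn (-0.28). The pair Vcan and Dcn did not pass for Spearman's rho (-0.21, adjusted permutation p = 0.15). Its r was -0.45 in the 1-day and -0.05 in the 5-day mice.

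Vcan ran against Prelp and Ogn. The pair Vcan and Prelp gave r = -0.51 and rho = -0.46 (adjusted permutation p = 0.001 and 0.0017), with r = -0.58 at 1 day, -0.44 at 5 days and -0.42 without the farthest 2 mice. Vcan and Ogn gave r = -0.45 and rho = -0.42 (adjusted permutation p = 0.002 and 0.0025), and r = -0.43 without the farthest 2. Dcn did not pass with Bgn, its closest paralogue, over all mice (r = -0.11 and rho = -0.04, adjusted permutation p = 0.55 and 0.8), but r was 0.36 in the 1-day and -0.47 in the 5-day mice. Neighbours on a chromosome gave r values within the range of the other pairs. Dcn and Lum, adjacent on chromosome 10, gave r = 0.32 (rho = 0.37, adjusted permutation p = 0.023 and 0.0075). Prelp and Fmod, adjacent on chromosome 1, gave r = 0.20 (rho = 0.19, adjusted permutation p = 0.33 and 0.18). Aspn and Ogn, which lie on chromosome 13 with Omd between them, gave r = -0.06 (rho = -0.03, adjusted permutation p = 0.79 and 0.83).

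For 9 of the 10 genes, the gene outside the set with the highest r over the 79 mice after removal of group means is given as a description, since it was picked for its r from all named rows. Bgn was closest to Smo (r = 0.81), which encodes the hedgehog signal transducer Smoothened. Hspg2 was closest to Nid1 (r = 0.77), which encodes nidogen, a basement membrane protein that binds perlecan, and Podn to Mfap5 (r = 0.79), a microfibril protein. Prelp was closest to Ltbp4 (r = 0.77), which encodes a latent transforming growth factor beta binding protein. Aspn was closest to Ccdc80 (r = 0.78), and Lum to Folr2 (r = 0.76), a folate receptor of tissue macrophages. Lum and Folr2 gave r of 0.587 in the 1-day and 0.833 in the 5-day mice. Vcan was closest to Slfn4 (r = 0.84), a myeloid gene, with r of 0.90 in the 1-day and 0.51 in the 5-day mice. Dcn was closest to Acsl1 (r = 0.69), a fatty acid activating enzyme, and Fmod to Pygm (r = 0.79), the muscle glycogen phosphorylase. Fmod and Pygm gave r of 0.63 in the 1-day and 0.875 in the 5-day mice. The 5-day mice include the WT smoke-exposed female replicate 4, with its high skeletal muscle markers. The second gene for Dcn was the fat marker Cidec (r = 0.68).

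Several relatives of these genes passed the exposure comparison. Of 9 other small leucine-rich genes, 2 rose and 1 fell at each duration, with list medians of 0 and 0.03. Tsku (tsukushi, a secreted leucine-rich protein) rose by 0.74 (adjusted p = 2.3e-12) at 1 day and 0.80 (adjusted p = 6.5e-11) at 5 days. Omd (osteomodulin), the neighbour of Aspn and Ogn, rose by 0.37 (adjusted p = 0.013) and 0.35 (adjusted p = 0.0053). Chad (chondroadherin) was lower at 1 day at -0.31 (adjusted p = 0.044), and Ecm2, on the other side of Aspn, was lower at 5 days at -0.29 (adjusted p = 0.014). Among 17 basement membrane and cell surface proteoglycans 1 rose and 1 fell at 1 day and 2 rose and 1 fell at 5 days. The transforming growth factor beta coreceptor Tgfbr3 (betaglycan) rose by 0.31 (adjusted p = 0.0058) and 0.32 (adjusted p = 0.006). For exposure, 5.03% of all rows were higher and 4.43% lower at 1 day, and 3.17% and 3.37% at 5 days.

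Enzymes that build the sugar chains moved in both directions with smoke. Of 23 genes of the linker and of chondroitin or dermatan sulfate synthesis, 4 rose and 3 fell at 1 day and none rose and 2 fell at 5 days. Xylt1, a xylosyltransferase that starts the linker on the core protein, was lower at both durations, at -0.37 (adjusted p = 0.0074) and -0.41 (adjusted p = 0.0038). Ust, a uronyl 2-sulfotransferase, rose by 0.27 (adjusted p = 5.5e-05) at 1 day, as did Papss2, which makes the sulfate donor, by 0.30 (adjusted p = 0.022). Dse, the dermatan sulfate epimerase, was lower at 5 days at -0.19 (adjusted p = 0.041). Of 21 heparan sulfate genes, 1 rose and 3 fell at each duration. At 5 days Ext1, a chain polymerase, changed by -0.22 (adjusted p = 0.00038), Ndst1, which starts sulfation of the chain, by -0.19 (adjusted p = 9e-05) and Hs2st1 by -0.15 (adjusted p = 0.03), while Hs3st1 rose by 0.21 (adjusted p = 0.04). At 1 day the extracellular sulfatase Sulf1 changed by -0.22 (adjusted p = 0.00084) and heparanase (Hpse) by -0.57 (adjusted p = 8.6e-05). Of 14 proteases and inhibitors that act on proteoglycans, 2 rose and 2 fell at 1 day and 1 rose and 4 fell at 5 days. The aggrecanase-type protease Adamts1 was lower, at -0.28 (adjusted p = 0.00066) and -0.42 (adjusted p = 1.2e-05), and the inhibitor Timp3 rose by 0.14 (adjusted p = 0.027) and 0.24 (adjusted p = 0.00033). Of 14 hyaluronan genes, the hyaluronan receptor Cd44 fell and the hyaluronidase Hyal1 rose at both durations, with Cd44 at -0.23 and -0.19 and Hyal1 at 0.26 and 0.25. Of 7 keratan sulfate genes none passed at 1 day and 2, B4galt1 (-0.11) and B4galt4 (-0.15), fell at 5 days. Beside these counts, 5.03% of all rows were higher and 4.43% lower with smoke at 1 day, and 3.17% and 3.37% at 5 days.

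**Figure D5:**
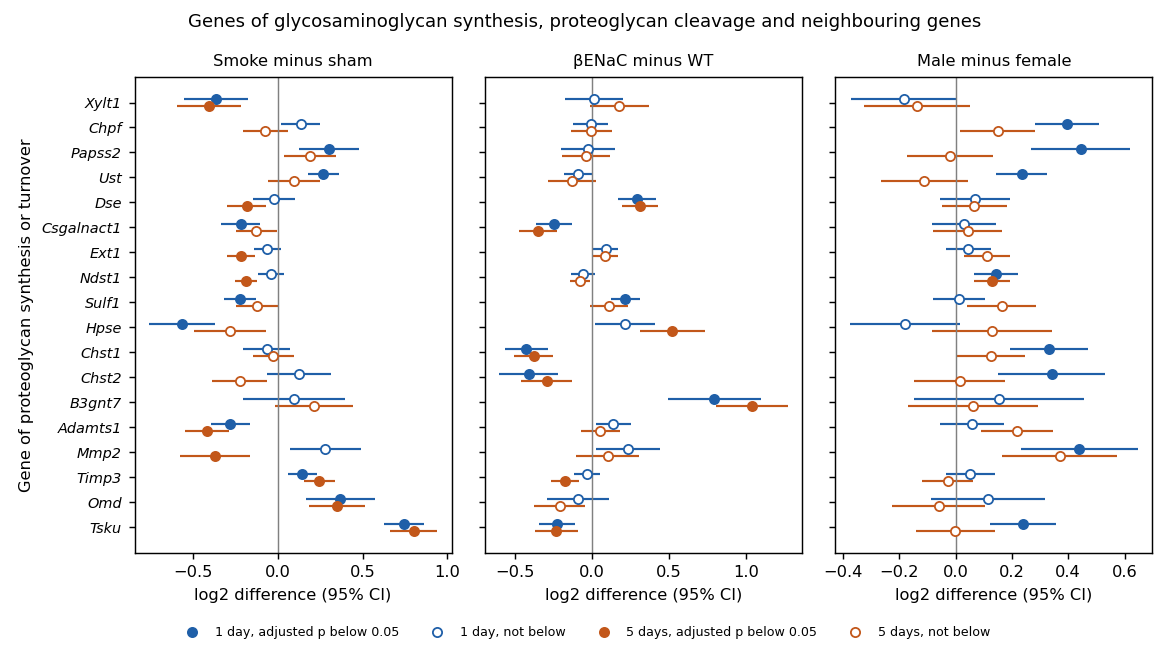
β coefficients (log2 difference) with 95% confidence intervals of 18 genes of chain synthesis, chain turnover, proteoglycan cleavage and the small leucine-rich group. They were picked from the lists among genes that passed at least 1 comparison. Panels show smoke minus sham, βENaC minus WT and male minus female at 1 day (blue) and 5 days (orange). Tsku and Omd rise with smoke and Xylt1 and Adamts1 fall at both durations, B3gnt7 is higher and Chst1, Chst2 and Csgalnact1 are lower in βENaC mice at both durations, and Chpf, Papss2 and Mmp2 are higher in males at 1 day.

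By genotype the largest coefficients in these lists lay in keratan sulfate synthesis and in the proteases. Of 7 keratan sulfate genes, 1 was higher and 2 were lower in βENaC mice at each duration. B3gnt7, which extends keratan sulfate chains, was higher by 0.79 (adjusted p = 0.00043) at 1 day and 1.04 (adjusted p = 2.3e-08) at 5 days. The sulfotransferases Chst1, at -0.43 (adjusted p = 4.9e-05) and -0.38 (adjusted p = 2.6e-05), and Chst2, at -0.41 (adjusted p = 0.0037) and -0.30 (adjusted p = 0.012), were lower. Mmp12, the macrophage elastase, was higher by 2.56 (adjusted p = 2.3e-05) and 3.22 (adjusted p = 9.8e-09), and the macrophage marker Cd68 by 0.85 (adjusted p = 5.9e-05) and 1.00 (adjusted p = 3.6e-07). Cd68 was 1 of 5 leukocyte markers. The mean of these 5 had a median of 8.60 in βENaC and 8.49 in WT mice at 1 day. At 5 days the medians were 8.60 and 8.44. Of 23 linker and chondroitin or dermatan sulfate genes, 1 was higher and 1 lower at 1 day and 1 was higher and 2 lower at 5 days. Dse was higher at 0.29 (adjusted p = 0.0014) and 0.31 (adjusted p = 0.00018), and Csgalnact1, which starts chondroitin chains, was lower at -0.25 (adjusted p = 0.0041) and -0.35 (adjusted p = 9e-05). Of 14 hyaluronan genes 1 was higher and 1 lower at 1 day and 2 were higher and 2 lower at 5 days, and the synthase Has3 was higher at 0.20 (adjusted p = 0.0077) and 0.35 (adjusted p = 2e-06). Of the 9 other small leucine-rich genes none was higher and 1 was lower at 1 day and 3 were lower at 5 days, with Tsku at -0.23 (adjusted p = 0.01) and -0.23 (adjusted p = 0.023). Col15a1, a basement membrane collagen that carries chondroitin sulfate, was higher at 5 days by 0.43 (adjusted p = 0.031). Among all rows 3.58% were higher and 2.29% lower in βENaC mice at 1 day, and 4.85% and 5.33% at 5 days.

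By sex at 1 day, every listed synthesis gene that passed was higher in males. These were 7 of 23 linker and chondroitin or dermatan sulfate genes, 4 of 21 heparan sulfate genes and 3 of 7 keratan sulfate genes, and 7 of 17 basement membrane and cell surface proteoglycans passed in the same direction, where 7.82% of all rows did. Rows lower in males made up 2.07% of all rows, so most called rows of the table were also higher in males. The medians of the 4 lists were 0.08, 0.02, 0.15 and 0.13. Chpf, a chondroitin polymerizing factor, was higher by 0.40 (adjusted p = 6.6e-06), Papss2 by 0.44 (adjusted p = 0.00051), Gpc1 (glypican 1) by 0.38 (adjusted p = 0.001) and Agrn (agrin, another basement membrane heparan sulfate proteoglycan) by 0.15 (adjusted p = 0.0077). Mmp2, a gelatinase made by fibroblasts, was higher by 0.44 (adjusted p = 0.0036). At 5 days Agrn at 0.19 (adjusted p = 0.0029) and Ndst1 at 0.13 (adjusted p = 0.045) passed, as did the proteases Adamts8 at 0.36 (adjusted p = 0.027) and Htra1 at 0.17 (adjusted p = 0.02), all higher in males, and no gene of the linker and chondroitin or the keratan sulfate list passed.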

How the data were processed

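RNA of 79 mouse lungs was hybridized to Affymetrix mouse gene arrays, all on 1 plate. The authors normalized the arrays by RMA and deposited log2 intensities in 1 table of 31350 rows; Expression Console 1.4 and Partek 6.6 are named in the submitters' processing notes, and a genome build is not given in the sources used here. Of 80 arrays run, the authors removed 1 as mislabelled. Array medians were 4.44 to 4.55. RMA puts all arrays on 1 distribution, so a shift shared by most genes would not be seen. Precision is limited by how many arrays each group had.

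Groups came from sample titles. Row identifiers were given symbols through the RefSeq gene table and the study's identifier lists (21837 rows), with the row of highest mean kept per gene. The members and lists were chosen with earlier results of these data known. Models were fitted with limma 3.58.1 (lmFit, eBayes) in R 4.3.3 on all rows, with genotype, exposure and sex at each duration as in the study's additive model. Interactions were added as separate terms, and the exposure by duration model held exposure and duration only. Benjamini-Hochberg adjustment covered all rows, and the script was tested on simulated data. Permutations used numpy 2.4.6, and figures matplotlib 3.10.9 in Python 3.11.15. Named genes were the 10 members, the label checks Scnn1b and Cyp1a1, cluster neighbours, list genes that passed, and the gene most similar to each member, which for Ogn is not reported here. The labels do not record litter or cage, so neither was modelled. WT and βENaC mice were littermates, so some mice may share a litter, while the p-values treat each mouse as independent. Alternatives were an ordinary linear model, a repeated quantile normalization, array centring, omission of the 30% dimmest rows, array weights, a trended robust prior, a block for replicate number, the 1.3-fold threshold and omission of each mouse.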

Additional observations from a re-analysis of the deposited data

Results flagged for a closer look

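Of 160 gene and group combinations with 4 to 6 mice, 5 held a mouse far from the others by Dixon's 95% criterion, where chance gives about 1 in 20. Dcn was 10.47 in the βENaC smoke-exposed female replicate 4 at 1 day and 11.07 in the WT smoke-exposed male replicate 2 at 5 days, each above its group. Lum was 5.98 in the WT smoke-exposed female replicate 5 at 1 day, above its group. Hspg2 was 8.40 in the βENaC smoke-exposed female replicate 1 at 1 day, below its group. Aspn was 9.14 in the βENaC sham-exposed male replicate 2 at 5 days, the highest Aspn value of any mouse. The smoke coefficient of Hspg2 differed between durations by -0.29 in the exposure by duration term of limma (adjusted p = 0.042), higher with smoke at 1 day in all 4 and lower at 5 days in all 4 combinations of genotype and sex.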

How the results depend on the processing

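No called value of the 10 genes changed sign. Of 840 values recomputed without leaving out a mouse, 9 changed their call. With array centring 1 of the 10 genes (Bgn) passed for exposure at 1 day. The labels do not say whether replicate numbers pair mice. Deviations from group means correlated at a mean r of 0.023 for equal and -0.00553 for unequal numbers at 1 day. The highest r of a pair was 0.465 for equal and 0.349 for unequal numbers at 1 day. At 5 days these were 0.538 and 0.306. A mean r cannot show whether some equal-numbered mice shared a litter or run. With the replicate number as a block, 0 genes passed for exposure within WT at 5 days, where Hspg2 was -0.18 (adjusted p = 0.078), and 0 for exposure by duration, where it was -0.28 (adjusted p = 0.061), and no other call changed under the block. Exposure by duration gave 2 genes (Hspg2 and Bgn) with genotype and sex duration terms, where 466 rows of the whole table passed in place of 192. With the 1.3-fold threshold 0 genes passed for sex at 1 day, exposure at 5 days, genotype at 5 days, sex at 5 days, exposure by duration, duration in smoke-exposed mice, exposure within WT at 5 days and exposure within βENaC at 1 day. In the 5-day mice alone 10 pairs covaried. Leaving out each mouse gave 0 to 1 genes for exposure at 1 day, exposure by duration, sex by duration, exposure within WT and genotype within sham at 1 day and at 5 days, and exposure within βENaC at 5 days. It gave 4 to 5 for sex at 1 day and for duration in smoke-exposed mice and 2 to 3 for genotype at 5 days. The causes were not tested. Averaging several rows of a gene could not be run, since each gene had 1 row.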
